A study of Mus musculus with 2 samples.

Results

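Gata2, Gata4, Gata5, Gata6, Nfatc1, Tbx20, Hand2, Sall1, Mecom and Erg are genes of GATA factors and of other transcription factors known from the endocardium and endothelium. They were chosen by symbol, and all 10 were found among the 32589 genes of the data. The study treated mice with an antibody that blocks PD-1, an immune checkpoint receptor used as a target in cancer therapy, and sequenced RNA of single heart nuclei on the GEXSCOPE system. Male C57BL/6 mice, 8 weeks old at purchase, received either PBS (control) or 5 mg/kg anti-mouse PD-1 antibody (PD-1 inhibitor) into the peritoneum, with injections on days 1 and 14 of a cycle of 28 days. Each condition had 1 library, and the number of hearts in a library was not given in the sources used here. The control library held 10197 barcodes with 13177525 UMIs (unique molecular identifiers, each standing for 1 counted RNA molecule), and the PD-1 inhibitor library held 7967 barcodes with 10875248 UMIs. After filters on mitochondrial UMIs and doublets, 9522 control and 7644 PD-1 inhibitor nuclei remained. The libraries shared 48 barcodes, and the values without those nuclei are part of the alternatives at the end.

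GATA factors are zinc finger proteins that bind the letters GATA in DNA. Gata4, Gata5 and Gata6 act in heart muscle and in the endocardium, the endothelial lining of the heart chambers, while Gata2 acts in blood stem cells and endothelium. The endocardium forms the valves during development, and NFATC1, TBX20 and HAND2 take part in that process. Levels of the 10 genes were expressed as CPM, the UMIs of a gene per 1000000 UMIs of a population of nuclei, with exact Poisson intervals, and ratios between libraries as log2 ratios with exact binomial intervals. All intervals are 95% intervals and cover counting error only, and a count of 0 is given with the level that 3 counts would have. With 1 library per condition no difference between the libraries has a replicate check, no test of the antibody was possible, and each ratio compares 2 libraries. Counts of a gene depend on its length and sequence, so that the 10 genes were compared across nuclei and not with each other.

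Endothelial nuclei were recognised by 12 markers of endothelium, all of which had UMIs in both libraries, and the members themselves took no part in clustering or naming. Names of cell types rest on such fixed markers alone and are given without the word like. Endothelial nuclei numbered 2814 among 9522 control nuclei and 2511 among 7644 PD-1 inhibitor nuclei, with medians of 898 and 951 UMIs per nucleus. They fell into 5 clusters, named endocardial, capillary, lymphatic, arterial and valve, and no cluster was named venous. The endocardial cluster carried all 10 of its markers (among them Npr3, Nrg1 and Plvap) and was led in part by Sall1, which was not among them. The lymphatic cluster was named endothelial on only 3 of the 12 endothelial markers, and the valve cluster rested on 5 of 8 valve markers. Endocardial nuclei made up 49.6% of endothelial nuclei in the control library (47.7% to 51.4%) and 59.1% in the PD-1 inhibitor library (57.2% to 61.1%). Capillary nuclei made up 35.0% (33.3% to 36.8%) and 27.6% (25.9% to 29.4%). Ratios over all endothelial nuclei are therefore given with values for the same mix of clusters for most members.

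Gata2 (ENSMUSG00000015053, chr6:88193891-88207032, plus strand; coordinates of all genes are on GRCm38) encodes a regulator of blood stem cells and endothelium. Its level in endothelial nuclei was 179 CPM in the control library (95% interval 164 to 195) and 231 CPM in the PD-1 inhibitor library (214 to 249). These nuclei held 88.0% and 90.4% of its UMIs, and no other named cell type exceeded 20.2 CPM. Gata2 was thus a mainly endothelial gene in both libraries. Within endothelium the arterial nuclei held 245 (171 to 339) and 329 (244 to 435) and the endocardial nuclei 228 (205 to 254) and 274 (249.7 to 299.6) CPM in control and PD-1 inhibitor nuclei. Capillary nuclei held 125 (104 to 149.8) and 139 (112 to 171), and lymphatic nuclei 83.2 (52.1 to 126) and 91.8 (55.3 to 143). In valve nuclei Gata2 had 14 and 36 UMIs, or 115 (63.1 to 194) and 239 (168 to 331) CPM. Arterial and endocardial nuclei did not differ beyond counting error. At least 1 Gata2 UMI occurred in 16.8% and 20.5% (10.1% and 12.3% after thinning) of endocardial nuclei, where each nucleus was thinned to 500 UMIs. Cardiomyocytes, which served as the background for this gene, had 1.25% and 1.92% (0.547% and 0.917% after thinning), at medians of 1404 and 1423 UMIs against 923 and 977 in endocardial nuclei.

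Gata4 (ENSMUSG00000021944, chr14:63198922-63271692, minus strand) encodes a factor of heart muscle genes that also acts in the endocardium. Cardiomyocytes held 306 CPM in the control library (95% interval 284 to 328) and 179 CPM in the PD-1 inhibitor library (161 to 199), and endothelial nuclei 177 (163 to 193) and 172 (158 to 188). Fibroblasts held 177 (163 to 193) and 159 (144 to 175), mesothelial nuclei 198 (169 to 232) and 214 (187 to 244) and mural nuclei 152 (124 to 184) and 205 (166 to 251) in control and PD-1 inhibitor nuclei. In the control library cardiomyocytes stood above these 4 types, and in the PD-1 inhibitor library mesothelial nuclei held the most and fibroblasts the least of the 5. Gata4 in macrophages (MP) was 18.7 (12.1 to 27.6) and 35.8 (25.0 to 49.5), and in T cells 20.9 (6.79 to 48.8) and 55.6 (27.8 to 99.5). Among endothelial nuclei the valve cluster held 363 (264 to 487) and 286 (207 to 385) and the endocardial cluster 278 (252 to 306) and 233 (211 to 257) CPM. In capillary nuclei Gata4 was 56.2 (42.1 to 73.5) and 57.4 (40.6 to 78.8), in arterial nuclei 34.0 (11.0 to 79.3) and 80.6 (41.7 to 141) and in lymphatic nuclei 30.3 (13.1 to 59.6) and 14.5 (2.99 to 42.3). Valve and endocardial nuclei did not differ beyond counting error and stood above the other endothelial clusters in both libraries. A Gata4 UMI occurred in 19.4% and 16.97% (11.8% and 8.48% after thinning) of endocardial nuclei and in 2.08% and 5.18% (0.417% and 2.59% after thinning) of T cells, the background for this gene, at medians of 923 and 977 and 848.5 and 884 UMIs.

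Gata5 (ENSMUSG00000015627, chr2:180325133-180334699, minus strand) encodes a GATA factor of the developing endocardium, and in these adult hearts its UMIs came mostly from mesothelial nuclei, the covering layer of the heart. Mesothelial nuclei held 84.4% and 72.1% of the Gata5 UMIs, at 102 CPM in the control library (95% interval 81.3 to 127) and 94.4 CPM in the PD-1 inhibitor library (76.7 to 115). Valve nuclei held 4 and 8 UMIs of Gata5, or 33.0 (8.99 to 84.5) and 53.2 (23.0 to 105) CPM, and endocardial nuclei 5 and 16, or 3.32 (1.08 to 7.75) and 9.26 (5.29 to 15.04) CPM. Capillary nuclei had 0 Gata5 UMIs in the control library, which allows up to 3.18 CPM, and 5 in the PD-1 inhibitor library. Arterial and lymphatic nuclei had 0 UMIs of the gene in both libraries. In arterial nuclei this allows up to 20.4 and 20.2 CPM, and in lymphatic nuclei up to 11.3 and 14.5. A Gata5 UMI occurred in 9.56% and 14.1% (2.49% and 3.90% after thinning) of mesothelial nuclei, at medians of 1293 and 1724 UMIs, and in 0 of 240 and 0 of 193 T cells, which allows shares of up to 1.25% and 1.55% at medians of 848.5 and 884 UMIs.

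Gata6 (ENSMUSG00000005836, chr18:11052064-11085635, plus strand), a paralog of Gata4 with overlapping roles in heart development, was shared by mesothelial and endothelial nuclei, cardiomyocytes and fibroblasts. Mesothelial nuclei held 234 CPM in the control library (95% interval 201 to 270.1) and 309 CPM in the PD-1 inhibitor library (276 to 345). Endothelial nuclei held 233 (216 to 251) and 298 (278 to 319), cardiomyocytes 188 (171 to 206) and 138 (122 to 155) and fibroblasts 116 (104 to 129) and 121 (107 to 135). Mesothelial and endothelial nuclei lay next to each other in the order, within counting error, and above cardiomyocytes in each library. Cardiomyocytes stood above fibroblasts in the control library but were not apart from them in the PD-1 inhibitor library. Gata6 in the endocardial cluster was 370.4 (340.3 to 402) and 413 (383 to 444) CPM, followed by 218 (149 to 307) and 296 (215 to 397) in arterial and 198 (127 to 295) and 166 (108 to 245) in valve nuclei. Capillary nuclei held 78.5 (61.6 to 98.5) and 101 (78.5 to 129) and lymphatic nuclei 22.7 (8.33 to 49.4) and 67.6 (37.0 to 113). The endocardial cluster exceeded every other endothelial cluster beyond counting error in each library. A Gata6 UMI was seen in 25.2% and 28.0% (14.4% and 16.7% after thinning) of endocardial nuclei and 0.833% and 1.04% (0.417% and 1.04% after thinning) of T cells, at medians of 923 and 977 and 848.5 and 884 UMIs.

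Nfatc1 (ENSMUSG00000033016, chr18:80606205-80713071, minus strand) encodes a calcineurin-dependent factor that marks endocardium in the embryo and is also active in lymphocytes. Endothelial nuclei held 114 CPM in the control library (95% interval 102 to 126) and 83.9 CPM in the PD-1 inhibitor library (73.7 to 95.2). B cells held 191 (136 to 259.7) and 113 (51.9 to 215), T cells 96.2 (61.0 to 144) and 152 (102 to 217) and macrophages 95.1 (79.2 to 113) and 120.2 (99.7 to 144), so that endothelium was not its only site. Within endothelium, lymphatic nuclei held 216 (163 to 279) and 159 (109.7 to 224) and valve nuclei 189.7 (120.3 to 285) and 219 (151 to 308). Endocardial nuclei had 110.2 (94.1 to 128) and 78.1 (65.5 to 92.5), arterial nuclei 95.2 (52.0 to 159.7) and 73.9 (36.9 to 132) and capillary nuclei 83.8 (66.3 to 104) and 46.9 (31.8 to 66.5) CPM of Nfatc1. Lymphatic and valve nuclei held the most in each library and did not differ from each other beyond counting error. Nfatc1 UMIs occurred in 9.10% and 6.67% (4.44% and 2.76% after thinning) of endocardial nuclei and 3.44% and 2.66% (1.25% and 1.01% after thinning) of cardiomyocytes, at medians of 923 and 977 and 1404 and 1423 UMIs.

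Tbx20 (ENSMUSG00000031965, chr9:24718138-24774303, minus strand), a T-box factor of heart chambers and valve cushions, was more a fibroblast and mural gene than an endothelial one. Fibroblasts held 652 CPM in the control library (95% interval 623 to 682) and 642 CPM in the PD-1 inhibitor library (611 to 675), which was 59.2% and 59.7% of its UMIs. Mural nuclei (pericytes and smooth muscle) held 408 (361 to 459) and 449 (391 to 514), cardiomyocytes 224 (205 to 243) and 185 (167 to 205), mesothelial nuclei 154 (128 to 184) and 109.9 (90.6 to 132) and endothelial nuclei 107 (95.9 to 119.7) and 118 (106 to 131). Fibroblasts, mural nuclei and cardiomyocytes were in this order in each library, each apart from the next beyond counting error. The small fibroblast cluster led by Wif1, Chad and B4galnt3, with 118 and 87 nuclei, held 1742 and 2011 CPM of Tbx20, while the other 3 fibroblast clusters held between 444 and 663. In endothelium, valve nuclei had 355 (257 to 478) and 432 (333 to 551) and endocardial nuclei 141 (123 to 162) and 141 (124 to 159). Arterial, capillary and lymphatic nuclei had 81.6 and 53.7, 43.5 and 34.8 and 41.6 and 14.5 CPM in control and PD-1 inhibitor nuclei. Valve nuclei thus led the endothelial clusters, with a Tbx20 UMI in 28.2% and 43.1% (19.2% and 19.4% after thinning) of them, at medians of 1470.5 and 1787 UMIs, against 3.75% and 1.55% (2.08% and 1.55% after thinning) of T cells, at 848.5 and 884.

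Hand2 (ENSMUSG00000038193, chr8:57320983-57324633, plus strand) encodes a basic helix-loop-helix factor of the right ventricle and the endocardium. Cardiomyocytes held 86.3 CPM in the control library (95% interval 75.0 to 98.8) and 76.4 CPM in the PD-1 inhibitor library (64.8 to 89.4). Endothelial nuclei held 69.7 (60.6 to 79.9) and 96.4 (85.4 to 108) and mesothelial nuclei 39.2 (26.6 to 55.6) and 50.1 (37.4 to 65.7). Within endothelium valve nuclei held 140.2 (81.7 to 225) and 179 (118 to 261) and endocardial nuclei 113 (96.5 to 131) and 136 (119 to 155), whereas capillary nuclei held 10.6 (5.08 to 19.5) and 19.7 (10.5 to 33.6). Arterial and lymphatic nuclei had 7 and 1 and 4 and 3 UMIs of Hand2 in control and PD-1 inhibitor nuclei. The valve and endocardial clusters therefore held the most in both libraries. Hand2 UMIs were found in 8.82% and 11.0% (4.16% and 5.99% after thinning) of endocardial nuclei and 0.417% and 0.518% (0%, which allows up to 1.25%, and 0.518% after thinning) of T cells, at medians of 923 and 977 and 848.5 and 884 UMIs.

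Sall1 (ENSMUSG00000031665, chr8:89027235-89044162, minus strand), a spalt family zinc finger gene best known from kidney development, was the most endocardial of the 10 genes by the share of its UMIs. Endocardial nuclei held 89.4% and 87.2% of them, at 129 CPM in the control library (95% interval 111 to 148) and 123 CPM in the PD-1 inhibitor library (107 to 140.4). Capillary nuclei held 6 and 4 UMIs (6.36 and 6.05 CPM), lymphatic nuclei 0 and 2 and arterial nuclei 0 in both libraries, which allows up to 20.4 and 20.2 CPM. Valve nuclei had 1 and 10 UMIs, or 8.25 (0.209 to 46.0) and 66.5 (31.9 to 122) CPM. Endocardial nuclei led this order in each library, in the PD-1 inhibitor library without being apart from valve nuclei beyond counting error. No cell type outside endothelium exceeded 4.97 CPM. A Sall1 UMI was found in 10.2% and 10.3% (5.45% and 4.92% after thinning) of endocardial nuclei and 0.391% and 0.458% (0%, which allows up to 0.235%, and 0.0917% after thinning) of cardiomyocytes, at medians of 923 and 977 and 1404 and 1423 UMIs.

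Mecom (ENSMUSG00000027684, chr3:29951296-30548008, minus strand), which encodes the zinc finger factor EVI1 of blood stem cells, was carried by endothelial nuclei and fibroblasts. Endothelial nuclei held 828 CPM in the control library (95% interval 796 to 862) and 668 CPM in the PD-1 inhibitor library (638 to 698), and fibroblasts 695 (665 to 725) and 578 (548 to 608). Mural nuclei held 225 (191 to 264) and 229 (188 to 277) and cardiomyocytes 51.2 (42.6 to 61.0) and 51.8 (42.3 to 62.6). Within endothelium the arterial nuclei stood out with 2148 (1918 to 2399) and 1424 (1239 to 1629.5) CPM. Capillary nuclei held 924 (863 to 987) and 582 (525 to 643), endocardial nuclei 828 (782 to 875) and 751 (711 to 793), valve nuclei 189.7 (120.3 to 285) and 193 (129 to 277) and lymphatic nuclei 49.2 (26.2 to 84.1) and 48.3 (23.2 to 88.8). Each of the 5 clusters was apart from the next, but capillary nuclei came before endocardial nuclei in the control library and after them in the PD-1 inhibitor library. The fibroblast cluster led by Wif1 again held more than the other fibroblasts, with 1560.4 and 1883 CPM. Mecom UMIs occurred in 79.0% and 69.3% (60.5% and 44.6% after thinning) of arterial nuclei, at medians of 1022 and 1197 UMIs, and in 7.27% and 6.97% (2.66% and 3.39% after thinning) of cardiomyocytes, at 1404 and 1423.

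Erg (ENSMUSG00000040732, chr16:95359169-95586593, minus strand) encodes an ETS family factor that maintains endothelial identity, and it was found in all 5 endothelial clusters. Endothelial nuclei held 278 CPM in the control library (95% interval 259.7 to 298) and 294 CPM in the PD-1 inhibitor library (274 to 314) and 81.6% and 85.2% of all Erg UMIs. Endocardial nuclei held 272 (246 to 299.8) and 320.1 (294 to 348), capillary nuclei 301 (267 to 338) and 286 (246 to 329) and arterial nuclei 347 (258 to 456) and 222 (153 to 311). Valve nuclei had 305 (215 to 421) and 233 (162 to 324) and lymphatic nuclei 182 (134 to 241) and 198 (142 to 269) CPM of Erg. Lymphatic nuclei held the least Erg in each library, in the PD-1 inhibitor library without being apart from arterial nuclei beyond counting error. The log2 ratio of lymphatic over capillary nuclei was -0.72 (-1.20 to -0.28) in the control library and -0.52 (-1.05 to -0.04) in the PD-1 inhibitor library. Erg UMIs occurred in 19.7% and 21.8% (11.5% and 12.0% after thinning) of endocardial nuclei, 19.7% and 20.5% (11.6% and 12.99% after thinning) of capillary nuclei and 3.60% and 3.39% (1.56% and 1.10% after thinning) of cardiomyocytes, at medians of 923 and 977, 824.5 and 824 and 1404 and 1423 UMIs. Counted over the 10 genes together, an endocardial nucleus held UMIs of 1.58 and 1.64 members on average (0.946 and 0.939 after thinning) and a capillary nucleus of 0.899 and 0.785 (0.571 and 0.488), against 0.254 and 0.285 (0.133 and 0.176) in T cells. Arterial nuclei had 1.72 and 1.66 (1.08 and 0.881) and valve nuclei 1.90 and 2.57 (0.756 and 0.861), at medians of 1022 and 1197 and 1470.5 and 1787 UMIs. Outside endothelium, fibroblasts had 1.13 and 1.02 (0.637 and 0.544), above capillary nuclei in both libraries. Cardiomyocytes had 1.02 and 0.819 (0.381 and 0.303) and mesothelial nuclei 0.850 and 1.11 (0.316 and 0.377).

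**Figure D1:**
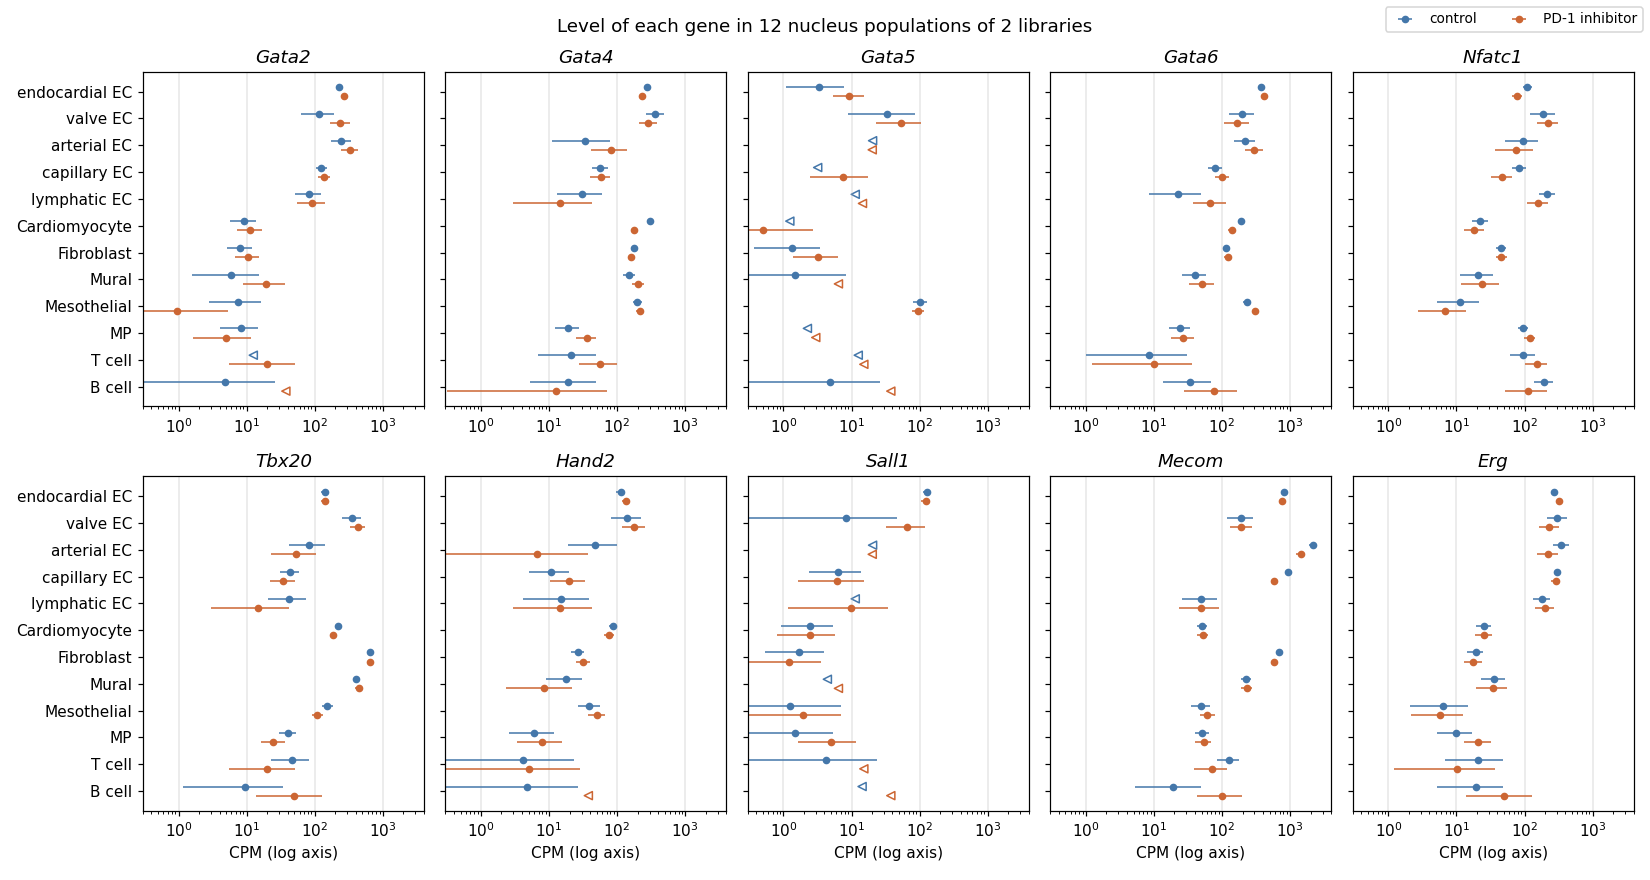
CPM (log axis) of each of the 10 genes in 12 populations of nuclei, for the control (blue) and PD-1 inhibitor (orange) libraries. Bars are exact 95% Poisson intervals of counting error, and open triangles mark the upper limit of 3 counts where no UMI was found. Sall1 sits in endocardial nuclei, Gata5 in mesothelial and valve nuclei, and Erg in all 5 endothelial clusters.

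A direct comparison of endocardial with capillary nuclei, made within each library, asked which of the 10 genes set the chamber lining apart from the microvessels. Gata4, Gata6, Tbx20, Hand2 and Sall1 were at least 2-fold higher in endocardial nuclei in both libraries, Gata2 was higher by less, and Mecom and Erg differed by less, with signs that were not the same in both libraries. Of the 9 members with at least 50 UMIs, 5 were at least 2-fold higher in each library, where 9.74% of 8251 genes in the control library and 10.4% of 8342 genes in the PD-1 inhibitor library were. No member was at least 2-fold lower, where 8.06% and 7.92% of genes were. Both clusters come from the same nuclei that were clustered, so that these ratios are a description. The members were chosen as factors known from endocardium and endothelium, with earlier results of these data known. Their counts beside all genes are therefore a description as well. Summed fibroblast markers were higher in endocardial nuclei as well, at 5982 and 7576 CPM against 1873 and 2283 in capillary nuclei (12 of 13 detected), and their part in these ratios, that of Tbx20 included, was not tested. Sall1 had the largest ratio, 4.23 (3.19 to 5.80) on the log2 scale in the control library and 4.18 (2.97 to 6.23) in the PD-1 inhibitor library. Hand2 followed with 3.35 (2.50 to 4.50) and 2.74 (1.99 to 3.72). Gata4 had ratios of 2.30 (1.89 to 2.75) and 2.00 (1.54 to 2.54), and its paralog Gata6 had 2.23 (1.89 to 2.61) and 2.02 (1.66 to 2.41). The paralogs thus leaned to endocardium by nearly the same size in each library. For Gata2 the values were 0.86 (0.56 to 1.18) and 0.97 (0.65 to 1.32), and for Nfatc1 0.39 (0.00 to 0.80) and 0.72 (0.17 to 1.35). Mecom went from -0.16 (-0.28 to -0.03) to 0.37 (0.20 to 0.54), on opposite sides of 0, while Erg had -0.15 (-0.37 to 0.08) and 0.16 (-0.08 to 0.41). The size for Mecom depended on the clustering, with -0.39 and 0.084 at resolution 0.5, while its signs stayed in all 11 alternatives. Gata5 had 16 against 5 UMIs in the PD-1 inhibitor library and a ratio of 0.20 (-1.22 to 2.10), which its counts could not tell from 0. Tbx20 had 1.69 (1.21 to 2.22) and 1.99 (1.40 to 2.70), a size that depended on the clustering. At resolution 2, where the endocardial nuclei fell into finer clusters, it was 1.03 and 0.93.

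**Figure D2:**
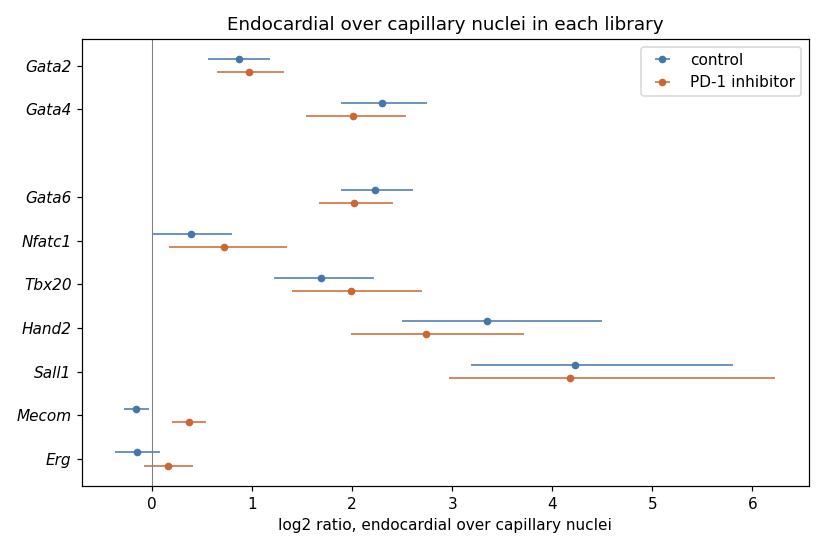
Log2 ratio of CPM in endocardial over capillary nuclei for 9 of the 10 genes, with the control library in blue and the PD-1 inhibitor library in orange. Bars are exact 95% intervals of counting error. Sall1, Hand2, Gata4, Gata6 and Tbx20 lie to the right of 1 in both libraries, and Mecom and Erg lie near 0.

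At resolution 2 the endocardial nuclei differed in Tbx20 between finer clusters. The cluster led by Selp, Bmx and Itgb4, with 338 control and 208 PD-1 inhibitor nuclei of the endocardial cluster, held 244 and 456 CPM. That led by Nrg1, Rps6ka2 and Smoc1 held 69.7 and 64.0, and that led by H19, Ahsg and Plagl1 held 103 and 69.9. A small finer cluster led by Wnt9b and Hapln1, with 61 and 53 of the endocardial nuclei, held 25 and 9 Tbx20 UMIs, or 384 and 147 CPM. The Selp-led cluster received no endothelial subtype name at that resolution, and which naming rule it failed is not reported here. Its leading genes included Selp, a fixed venous marker, and Bmx and Efnb2, fixed arterial markers. It made up a smaller part of the endocardial nuclei in the PD-1 inhibitor library than in the control library. Within it the log2 ratio of Tbx20, PD-1 inhibitor over control, was 0.90 (0.52 to 1.30), and within the H19-led cluster it was -0.56 (-1.11 to -0.01). The ratio of Tbx20 over the whole endocardial cluster, near 0, therefore joined finer clusters with opposite directions. Summed fibroblast markers were 5612 and 7889 CPM in the Selp-led, 5862 and 6632 in the H19-led and 6567 and 8520 in the Nrg1-led cluster. Median depths were 921 and 1198.5, 822 and 854, and 1119 and 1190 UMIs, again for control and PD-1 inhibitor nuclei. The part of these markers and depths in the Tbx20 values was not tested. Gata6 peaked elsewhere, at 488 and 571 CPM in the Nrg1-led cluster against 371 and 405 in the Selp-led and 306 and 299 in the H19-led cluster. Gata4 was 283 and 209 in the Nrg1-led, 306 and 370.2 in the Selp-led and 267 and 196 in the H19-led cluster, with log2 ratios between the libraries of -0.44 (-0.81 to -0.07), 0.27 (-0.11 to 0.66) and -0.44 (-0.77 to -0.12). Gata4 was thus lower in the PD-1 inhibitor library in the Nrg1-led and H19-led clusters and not in the Selp-led one, a difference that was not tested. These finer clusters were looked at after the values of Tbx20 had been seen.

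The comparison of the libraries asked how these factors differed in the endothelium of mice given the PD-1 antibody. Over all endothelial nuclei, Gata2, Gata6 and Hand2 were at least 1.2-fold higher in the PD-1 inhibitor library and Nfatc1 and Mecom at least 1.2-fold lower, while Gata4, Tbx20, Sall1 and Erg lay between. Of 9 members with at least 50 UMIs, 3 were higher, where 23% of 10703 genes were, and 2 were lower, where 20.1% were. The median log2 ratio was 0.14 over the 9 members and 0.01 over all genes. Hand2 had a log2 ratio of 0.47 (0.20 to 0.73), Gata2 of 0.37 (0.20 to 0.53) and Gata6 of 0.36 (0.21 to 0.50). All 3 were genes with higher levels in endocardial than in capillary nuclei, and the PD-1 inhibitor library had the larger share of endocardial nuclei. With the same mix of endothelial clusters in both libraries, the ratio was 0.26 for Hand2, 0.28 for Gata2 and 0.19 for Gata6, and 1 member was at least 1.2-fold higher in place of 3. Sall1, with a ratio of 0.22 (-0.06 to 0.51), was at 0.00 under the same mix, and Gata4, with -0.04 (-0.22 to 0.14), at -0.22. Nfatc1 had 339 and 243 UMIs, which gave a log2 value of -0.44 (-0.68 to -0.20), and kept -0.47 under the same mix. Mecom, with 2470 and 1934 UMIs, had -0.31 (-0.40 to -0.22) and -0.34. The lower levels of Nfatc1 and Mecom were thus of the same size with the mix held equal. Erg had 0.08 (-0.06 to 0.22) and Tbx20 0.14 (-0.09 to 0.36), both within counting error. For Tbx20 the value was -0.19 as a mean over nuclei and -0.46 after thinning, so that its direction depended on the scale. Gata5 had 9 and 29 UMIs in endothelial nuclei and a log2 ratio of 1.68 (0.61 to 2.99), and did not reach the 50 UMIs needed to enter the count.

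Gene length moved with these ratios. Over all endothelial genes in 5 groups of equal size from the shortest to the longest gene, the median log2 ratios were 0.22, 0.09, 0.02, -0.06, -0.17. Hand2 was in the group of the shortest genes, Gata2 and Sall1 in the next, Gata6 in the third, Gata4 and Tbx20 in the fourth, and Nfatc1, Mecom and Erg in that of the longest. The ratios of Hand2 and Gata2 lay above and those of Nfatc1 and Mecom below the median of their own length group, and Erg, in the same group as Nfatc1 and Mecom, lay above it. In cardiomyocytes the corresponding medians were 0.27, 0.09, 0.02, -0.09, -0.27, and in mesothelial nuclei 0.05, 0.00, -0.01, -0.01, -0.02. Summed fibroblast markers in endothelial nuclei moved as well, from 4307 to 5930 CPM (12 of 13 detected in each library, Dpep1 at 0), with Mgp as the most abundant in the control library and Dcn in the PD-1 inhibitor library. Summed cardiomyocyte markers were 4068 and 4216 (12 of 12, led by Myh6). The part of gene length and of RNA from other cells in the members' ratios was not tested.

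In endocardial and capillary nuclei Nfatc1 and Mecom had ratios below 0, while those of Gata2, Gata6 and Hand2 were smaller in endocardial nuclei than over all endothelial nuclei. In endocardial nuclei 1 of 9 members (Hand2) was at least 1.2-fold higher, where 23.4% of 9098 genes were, and 1 (Nfatc1) lower, where 20.9% were. Nfatc1 had a ratio of -0.49 (-0.83 to -0.16) there and Hand2 of 0.27 (-0.02 to 0.56). With at least 500 genes per nucleus the Nfatc1 value was -0.19, short of 1.2-fold, and after thinning -0.81. Gata4 had -0.25 (-0.45 to -0.05) and Gata2 0.26 (0.06 to 0.47), both beyond counting error but short of 1.2-fold, and after thinning Gata4 was at -0.51. Erg had 0.23 (0.05 to 0.42) and Gata6 0.16 (-0.01 to 0.32). Sall1, at -0.07 (-0.36 to 0.22), and Tbx20, at -0.01 (-0.28 to 0.26), were within counting error of no difference. For Tbx20 the endocardial value moved to -0.97 with each library clustered alone. Capillary nuclei had the larger differences: Mecom at -0.67 (-0.84 to -0.49) and Nfatc1 at -0.82 (-1.49 to -0.22). There 1 of 7 members, Gata6 with 0.37 (-0.13 to 0.86), was at least 1.2-fold higher, where 26.2% of 6529 genes were, and 3 were lower (Nfatc1, Mecom and Tbx20), where 26.7% were. Tbx20 in capillary nuclei, at -0.31 (-1.13 to 0.45), was within counting error. Mecom in arterial nuclei, the cluster where it was highest, was at -0.59 (-0.85 to -0.34), and in endocardial nuclei at -0.14 (-0.25 to -0.03). With doublets kept the arterial value was -0.33, and over the alternatives the endocardial value ranged from -0.26 to -0.07. The reported Mecom values in capillary, arterial and endocardial nuclei all lay below 0 beyond counting error. Within the endocardial nuclei this did not hold for each finer cluster, with -0.29 (-0.47 to -0.11) in the Nrg1-led and -0.20 (-0.39 to -0.01) in the H19-led cluster but 0.21 (-0.02 to 0.45) in the Selp-led one (817 and 948 CPM). In arterial nuclei 2 of 4 members tested were higher (Gata2 and Gata6), where 27.3% of genes were, and 2 lower (Mecom and Erg), where 31.6% were. Valve nuclei had 2 of 6 higher (Gata2 and Tbx20), where 28.7% of genes were, and 2 lower (Gata4 and Erg), where 25.4% were. Of Nfatc1 and Erg, the 2 members tested in lymphatic nuclei, 0 were higher, where 26.5% of genes were, and 1 (Nfatc1) was lower, where 30.8% were. These clusters had the fewest nuclei, and of these tested members, Mecom in arterial nuclei and Gata2 in valve nuclei, at 1.02 (0.13 to 2.06), lay beyond counting error. Nfatc1 had 0.20 (-0.60 to 1.04) and Mecom 0.02 (-0.82 to 0.88) in valve nuclei, so that neither was lower there. In valve nuclei Tbx20 had 0.28 (-0.29 to 0.88), with 43 and 65 UMIs, and -0.33 after thinning, with its sign turned. Of these clusters, only members with at least 100 UMIs over both libraries were followed through the alternatives, a minimum set after the data had been seen.

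**Figure D3:**
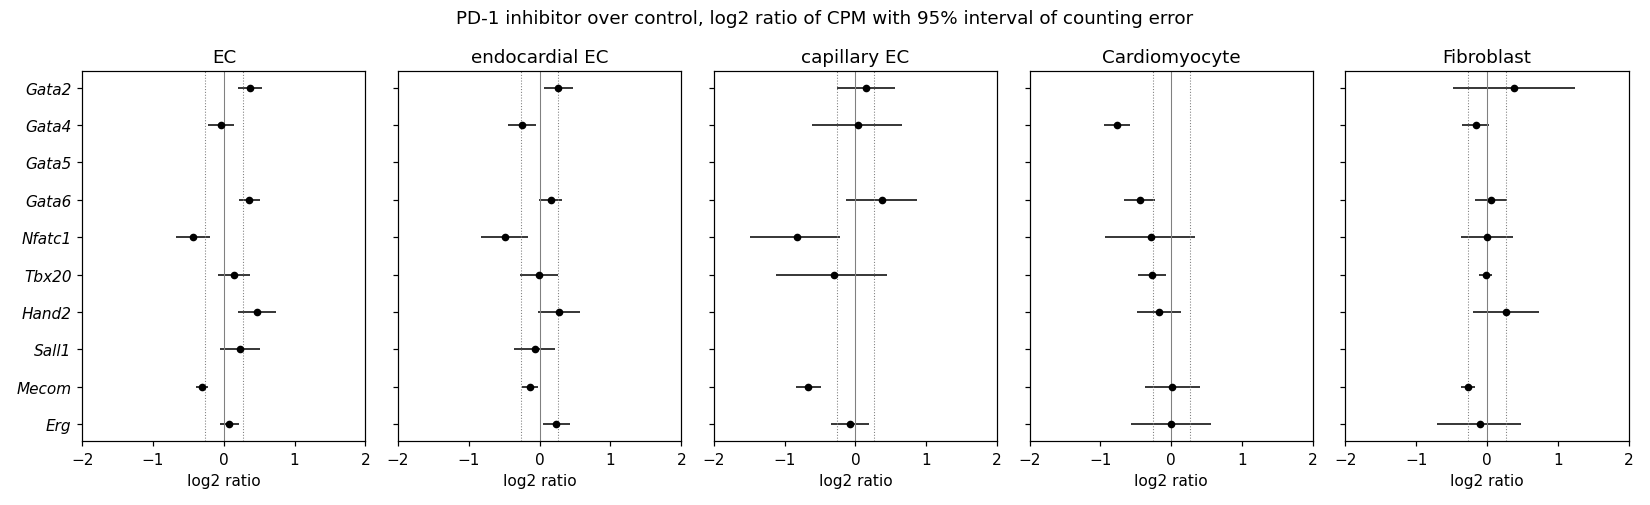
Log2 ratios of CPM, PD-1 inhibitor over control, of members with at least 50 UMIs in endothelial (EC), endocardial, capillary, cardiomyocyte and fibroblast nuclei. Points are ratios of 1 library to 1 library, bars exact 95% intervals of counting error, and dotted lines mark 1.2-fold. Nfatc1 and Mecom lie left of 0 in the 3 endothelial panels, and Gata4 and Gata6 left of 0 in cardiomyocytes.

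Cardiomyocytes showed lower Gata4, Gata6 and Tbx20 in the PD-1 inhibitor library, and no member with at least 50 UMIs was higher by 1.2-fold. Of 7 members with at least 50 UMIs, 4 were at least 1.2-fold lower (Gata4, Gata6, Nfatc1 and Tbx20), where 27.5% of 9203 genes were, and 0 higher, where 25.9% were. Gata4 had 740 and 364 UMIs, which gave a log2 value of -0.77 (-0.95 to -0.59). Its paralog Gata6 had -0.45 (-0.67 to -0.23) and Tbx20 -0.27 (-0.47 to -0.08). Gata2, below that minimum with 22 and 23 UMIs, had 0.32 (-0.59 to 1.23). Hand2, with -0.17 (-0.49 to 0.13), and Nfatc1, with -0.28 (-0.93 to 0.34), were within counting error. Cardiomyocyte clusters differed in mix: the cluster led by Xirp2, Acta1 and Ckm, with a median of 9.50% and 8.46% mitochondrial UMIs, held 495 of 1279 control and 517 of 1091 PD-1 inhibitor cardiomyocytes. Gata4 was 112 and 74.4 CPM in this cluster, with a log2 ratio of -0.59 (-1.08 to -0.11), which was looked at after the value over all cardiomyocytes had been seen. With the same mix of clusters in both libraries the ratio of Gata4 over all cardiomyocytes was -0.58, so that it stayed lower with the mix held equal. Gata6 had -0.02 (-0.45 to 0.42) in the Xirp2-led cluster, within counting error. Tbx20 had -0.18 (-0.60 to 0.25) there, also within counting error, and in the small cluster led by Mybphl, Sln and Myl4, with 41 and 43 nuclei, it went from 28 to 12 UMIs, -1.63 (-2.77 to -0.64). Summed endothelial markers in cardiomyocytes were 595 and 852 CPM (12 of 12, led by Eng) and summed fibroblast markers 2331 and 2967 (12 of 13), and their part in these values was not tested.

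Among the other cell types, Mecom in fibroblasts and Gata6 in mesothelial nuclei were among those that differed between the libraries beyond counting error. Mecom in fibroblasts had 2077 and 1435 UMIs, which gave a log2 value of -0.27 (-0.36 to -0.17). Within fibroblast clusters, which were looked at after these values had been seen, it had -0.28 (-0.48 to -0.09) in the one led by Inmt, -0.70 (-0.98 to -0.43) in that led by Cilp and -0.34 (-0.49 to -0.18) in that led by Msc, but 0.27 (0.04 to 0.51) in the small Wif1-led cluster. Tbx20, at -0.02 (-0.12 to 0.07) over all fibroblasts, hid opposite directions, with 0.58 (0.35 to 0.80) in the Inmt-led, -0.39 (-0.61 to -0.18) in the Cilp-led and -0.32 (-0.48 to -0.17) in the Msc-led cluster. The equal levels of Tbx20 over all fibroblasts were thus a sum of unlike clusters. Of 8 members with at least 50 UMIs in fibroblasts, 2 were at least 1.2-fold higher (Gata2 and Hand2, both within counting error), where 22.7% of genes were, and 1 (Mecom) was lower, where 20% were. In mesothelial nuclei Gata6 had 0.40 (0.14 to 0.67) and Tbx20 -0.49 (-0.87 to -0.11), in opposite directions. Gata5 there had -0.12 (-0.56 to 0.33) and Gata4 0.11 (-0.19 to 0.41), both within counting error, at medians of 1293 and 1724 UMIs per nucleus. After thinning to 500 UMIs these were 1.09 for Gata5 and 0.66 for Gata4, with the sign of Gata5 turned. Of 6 members tested in mesothelial nuclei 3 were higher (Gata6, Hand2 and Mecom), where 21.7% of genes were, and 1 (Tbx20) was lower, where 22.9% were. Of these, Hand2, at 0.35 (-0.31 to 1.05), and Mecom, at 0.29 (-0.30 to 0.92), were within counting error. Mural nuclei had Gata4 at 0.44 (0.02 to 0.85) and Tbx20 at 0.14 (-0.13 to 0.40). Gata4 was 0.22 (-0.25 to 0.68) in the larger mural cluster, led by Lin7a, and 1.35 (0.37 to 2.41) in the smaller, Myh11-led one, with 15 and 23 UMIs. Over all mural nuclei 2 of 4 members tested (Gata4 and Gata6) were higher, where 25.6% of genes were, and 0 lower, where 26.8% were. Gata6 there, at 0.37 (-0.49 to 1.22), was within counting error. Macrophages, a class that also held a small cluster led by Cd209a and Clec9a, had 2 of 5 higher (Gata4 and Nfatc1), where 22.9% of genes were, and 1 lower (Tbx20), where 26% were. Tbx20 in macrophages, at -0.69 (-1.45 to 0.01), was within counting error. Gata4 in this class had 25 and 36 UMIs and a value of 0.93 (0.16 to 1.73). In the Ms4a14-led cluster alone it was 0.40 (-0.48 to 1.28), within counting error. The Cd209a-led cluster, of whose leading genes none was a fixed macrophage marker, had 1 and 12 UMIs. Gata4 in the class was thus beyond counting error only with that cluster. Nfatc1 in the macrophage class had 0.34 (-0.03 to 0.71), within counting error. It had 0.44 (0.05 to 0.83) in the Ms4a14-led and -0.60 (-2.06 to 0.65) in the Cd209a-led cluster. The difference from its lower values in endothelium was not tested.

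Some members overlap genes on the opposite strand, and the strand used in counting was not given in the sources used here, so that UMIs of such pairs cannot be told apart where they overlap. Hand2 overlaps Hand2os1 (ENSMUSG00000100510, chr8:57281117-57324233, minus strand), a long non-coding RNA gene that had more UMIs than Hand2. Hand2os1 in endothelial nuclei was 472 and 621 CPM, a log2 ratio of 0.40 (0.30 to 0.50), close to that of Hand2. In endocardial nuclei Hand2os1 was 840.3 and 947, with 0.17 (0.07 to 0.28), and in cardiomyocytes 645 and 544, with -0.25 (-0.36 to -0.14). Hand2 and its antisense gene had the same signs in these 3 populations. Gata6 overlaps 1010001N08Rik (ENSMUSG00000097222, chr18:10987944-11052567, minus strand) at its start, which had 82.8 and 83.2 CPM in endothelial nuclei and a ratio of 0.01 (-0.25 to 0.27), unlike that of Gata6. In cardiomyocytes 1010001N08Rik had -0.40 (-0.72 to -0.10), close to that of Gata6 there. Gata5os and Mecomos, which overlap Gata5 and Mecom, had 8 and 4, and 63 and 81 UMIs in control and PD-1 inhibitor nuclei.

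Genes that act with or downstream of the members were followed by 7 lists in endothelial nuclei, beside a median log2 ratio over all genes of 0.01 and the shares of 23% higher and 20.1% lower given above, and by 1 list in cardiomyocytes. Among cofactors of GATA proteins, 2 of 11 were at least 1.2-fold higher and 2 lower, with a median of -0.09. Lmo4, a LIM-only adaptor, was 95.2 and 173 CPM, a log2 ratio of 0.86 (0.65 to 1.07), and Ldb2, a LIM domain binding protein, 504 and 303 CPM, a log2 ratio of -0.73 (-0.86 to -0.61). The LMO2 partner gene Lyl1 was 37.2 and 63.2 CPM, a log2 ratio of 0.76 (0.42 to 1.12). Within endocardial nuclei these genes were 0.67 (0.44 to 0.91), -0.92 (-1.12 to -0.71) and 0.45 (0.02 to 0.88), and within capillary nuclei 0.21 (-0.70 to 1.09), -0.29 (-0.51 to -0.07) and 0.72 (-0.23 to 1.69). Cardiac partners of GATA factors had 0 higher and 4 lower of 5 tested, with a median of -0.37. Mef2c, a MADS-box factor, was 467 and 308 CPM, a log2 ratio of -0.60 (-0.72 to -0.48), and Mef2a 625 and 502 CPM, a log2 ratio of -0.32 (-0.42 to -0.22). Mef2c was -0.62 (-0.83 to -0.42) within endocardial and -0.20 (-0.37 to -0.02) within capillary nuclei, and Mef2a -0.41 (-0.55 to -0.27) and -0.31 (-0.49 to -0.13). Relatives of the members had 3 higher and 6 lower of 11, with a median of -0.28. Fli1, the closest relative of Erg, was 675 and 424 CPM, a log2 ratio of -0.67 (-0.77 to -0.57), while Erg itself was at 0.08 (-0.06 to 0.22). Nfatc3 was 108 and 85.0 CPM, a log2 ratio of -0.35 (-0.60 to -0.11), and the lymphatic gene Tbx1 45.6 and 31.1 CPM, a log2 ratio of -0.55 (-0.95 to -0.16), beside fewer lymphatic nuclei in the PD-1 inhibitor library. Fli1 was also lower within endocardial nuclei, at -0.61 (-0.77 to -0.45), and capillary nuclei, at -0.42 (-0.57 to -0.27), while Nfatc3, at -0.33 (-0.67 to 0.02) and -0.21 (-0.65 to 0.20), was within counting error in both. Calcineurin, the phosphatase that activates NFATC1, and its regulators had 0 higher and 3 lower of 9, with a median of -0.20. Rcan1, a feedback regulator that is itself a known NFAT target, was 53.0 and 38.3 CPM, a log2 ratio of -0.46 (-0.83 to -0.11), and the NFAT kinase gene Dyrk1a 145 and 93.6 CPM, a log2 ratio of -0.63 (-0.85 to -0.41). The calcineurin subunit gene Ppp3cb was 176 and 148 CPM, a log2 ratio of -0.25 (-0.44 to -0.06). In endocardial nuclei alone Rcan1 was -0.37 (-0.89 to 0.14), Dyrk1a -0.75 (-1.07 to -0.44) and Ppp3cb -0.13 (-0.38 to 0.12), and in capillary nuclei alone -0.95 (-1.90 to -0.13), -0.48 (-0.91 to -0.08) and -0.37. No gene of this list was 1.2-fold higher.

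Other endothelial transcription factors had 1 higher and 5 lower of 16, with a median of -0.16. Sox18, a SOX factor of vessels, was 210.2 and 287 CPM, a log2 ratio of 0.45 (0.30 to 0.60), and it was higher in both endocardial nuclei (0.75) and capillary nuclei (0.78). Meox2, a homeobox gene, was 106 and 59.1 CPM, a log2 ratio of -0.84 (-1.12 to -0.57), and Bcl6b 129 and 91.9 CPM, a log2 ratio of -0.49 (-0.72 to -0.26). Both had their higher levels in capillary nuclei, which were fewer in the PD-1 inhibitor library, and within these Meox2 was -0.40 (-0.70 to -0.11) and Bcl6b -0.27 (-0.58 to 0.04). Within endocardial nuclei Meox2 was -0.77 (-1.87 to 0.26) and Bcl6b -0.77 (-1.30 to -0.25). Known endothelial targets of ERG or GATA2 had 3 higher and 3 lower of 15, with a median of 0.03. The von Willebrand factor gene Vwf was 1119.9 and 1447 CPM, a log2 ratio of 0.37 (0.30 to 0.44), with 0.19 within endocardial and 0.04 within capillary nuclei. The adhesion gene Icam2 was 314 and 433 CPM, a log2 ratio of 0.46 (0.34 to 0.59), with 0.34 and 0.49 within these. Dll4, a NOTCH ligand, was 98.2 and 68.7 CPM, a log2 ratio of -0.51 (-0.78 to -0.25), but -0.35 (-0.82 to 0.13) within endocardial and -0.20 (-0.64 to 0.22) within capillary nuclei, both within counting error. Signalling genes of the endocardium had 7 higher and 1 lower of 14, with a median of 0.30, in a library with more endocardial nuclei. Bmp4, a ligand of the BMP pathway, was 83.2 and 142 CPM, a log2 ratio of 0.77 (0.54 to 1.00), with 0.90 within endocardial and 0.02 within capillary nuclei. Wnt9b, a valve ligand, was 73.1 and 99.1 CPM, a log2 ratio of 0.44 (0.18 to 0.70), but 1584 and 1582 CPM within valve nuclei. It was -0.28 (-1.33 to 0.76) within endocardial nuclei and, from 4.24 and 40.8 CPM, 3.12 (1.75 to 5.24) within capillary nuclei. Known targets of GATA4 in cardiomyocytes had 3 higher and 2 lower of 8, with a median of 0.20, where all genes had a median of -0.01 and 25.9% were higher and 27.5% lower. Slc8a1, the sodium-calcium exchanger gene, was 3481 and 1787 CPM, a log2 ratio of -0.96 (-1.02 to -0.91). Nppa, the gene of atrial natriuretic peptide, was 494 and 796 CPM, a log2 ratio of 0.69 (0.58 to 0.80), and the troponin gene Tnni3 3475 and 4923 CPM, a log2 ratio of 0.50 (0.46 to 0.54). Of these lists, the endothelial genes Pecam1, Cdh5, Tie1, Tek, Emcn, Eng, Egfl7 and Kdr, the subtype genes Nrg1, Npr3, Vwf, Wnt9b, Hapln1, Dll4, Hey1, Sox17, Nr2f2 and Tbx1, and the cardiomyocyte genes Myh6, Tnni3 and Actc1 were also markers set for naming clusters. The targets of GATA4 moved in both directions. The mix of cardiomyocyte clusters also differed between the libraries, and its part in these values was not tested.

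The genes most like 9 of the members were sought by Pearson correlation of log2 levels over 28 points, 14 cell types and endothelial clusters in each of the 2 libraries, among 11480 genes. Points share libraries and depth, and the values are a description. Nearest to Gata2 were Mall (r = 0.960), Mmrn2 (r = 0.937), Rasip1 (r = 0.926), and to Erg Mmrn2 (r = 0.958), Ccm2l (r = 0.958), Arhgef15 (r = 0.953). Gata4 was nearest to Tbx20 (r = 0.874), Nckap5 (r = 0.851), Sobp (r = 0.788), and Tbx20 to Gata4 (r = 0.874), Npas2 (r = 0.871), Sobp (r = 0.858), so that these 2 members headed each other's list. Sall1 was nearest to Nrg1 (r = 0.944), H19 (r = 0.889), Gm30648 (r = 0.870), of which Nrg1 was a marker used to name the endocardial cluster. Gata5 was nearest to Esyt3 (r = 0.932), Nrgn (r = 0.888), Dock3 (r = 0.881). Hand2 was nearest to Hand2os1 (r = 0.856), 2900097C17Rik (r = 0.850), Crip2 (r = 0.776), the first of them its overlapping antisense gene. Mecom was nearest to Myrip (r = 0.840), Plcb1 (r = 0.837), Mrtfb (r = 0.830), and Nfatc1 to Sh2d3c (r = 0.784), Tspan14 (r = 0.781), Ier5 (r = 0.765).

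Promoter windows of 300 bases from RefSeq (GRCm38.p6) were found for 7 of the 10 members, and for Gata4, Gata6 and Nfatc1 none was used here. The GATA motif, written as AGATAA with its variant AGATAG and as TGATAA with its variant TGATAG, was searched on both strands in the 13 windows of these 7 genes. A match occurred in 5 of the 13 windows (38.5%), where 29.8% of 32851 promoter windows of the same length had one. Hand2, Sall1, Mecom and Erg had a window with a match, and Gata2, Gata5 and Tbx20 had none in these windows. A match is a description of letters and not a bound site. Both windows of Mecom lie inside its gene span (chr3:29951296-30548008, minus strand), downstream of the start of that span. The windows of Hand2, Sall1 and the more upstream of 2 windows of Mecom are shown, because Hand2 and Sall1 had the largest endocardial over capillary ratios and Mecom changed sides between the libraries, 5′ to 3′ on the strand of the gene with the match in capitals (TTATCT stands for the opposite strand of AGATAA).
Hand2 chr8:57320733-57321032 (plus strand): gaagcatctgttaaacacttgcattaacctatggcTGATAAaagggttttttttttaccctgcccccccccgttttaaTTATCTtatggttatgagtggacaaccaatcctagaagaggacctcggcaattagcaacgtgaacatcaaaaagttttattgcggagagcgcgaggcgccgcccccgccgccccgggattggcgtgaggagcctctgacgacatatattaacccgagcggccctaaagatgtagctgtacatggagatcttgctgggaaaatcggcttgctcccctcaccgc
Sall1 chr8:89044113-89044412 (minus strand): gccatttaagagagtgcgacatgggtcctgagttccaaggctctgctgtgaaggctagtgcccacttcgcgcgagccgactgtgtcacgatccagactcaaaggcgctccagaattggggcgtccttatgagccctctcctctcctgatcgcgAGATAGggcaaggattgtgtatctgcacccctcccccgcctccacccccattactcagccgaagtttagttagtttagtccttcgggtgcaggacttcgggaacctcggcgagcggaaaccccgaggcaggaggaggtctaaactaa
Mecom chr3:30509710-30510009 (minus strand): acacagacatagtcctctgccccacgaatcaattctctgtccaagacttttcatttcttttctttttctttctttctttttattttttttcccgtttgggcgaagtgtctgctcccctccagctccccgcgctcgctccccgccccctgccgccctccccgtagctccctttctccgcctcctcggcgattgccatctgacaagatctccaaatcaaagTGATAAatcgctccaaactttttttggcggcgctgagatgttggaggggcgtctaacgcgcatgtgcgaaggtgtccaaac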

How the data were processed

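The authors deposited whole-number UMI counts per gene and barcode, mapped to GRCm38 (mm10) according to the submitters' processing notes. The aligner, the counting program and the strand of counting were not given in the sources used here. From these counts everything below was computed with Python 3.11.15, scanpy 1.11.5, anndata 0.12.19, numpy 2.4.6, scipy 1.17.1, pandas 2.3.3, scikit-learn 1.9.0, igraph 0.11.9 and matplotlib 3.10.9. Barcodes passed with 200 or more genes and a mitochondrial share of UMIs up to 20%, and Scrublet doublets were removed within each library (592 and 308). Both libraries were clustered together by Leiden at resolution 1 on 30 principal components and 15 neighbours, from 2000 variable genes chosen within libraries with the 10 members left out. Of 22 clusters, 21 were named from at least 3 fixed markers (found in 5% of nuclei and 2-fold above the rest), and a proliferating cluster of 31 and 13 nuclei stayed unnamed.

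UMIs were summed per library and population and divided by the population's total. Ratios added 0.5 UMI to each sum. A gene was tested for 1.2-fold between the libraries, or 2-fold between endocardial and capillary nuclei, with at least 50 UMIs over both sides. The lists (cofactors and cardiac partners of GATA factors, relatives of the members, the calcineurin pathway, other endothelial transcription factors, known targets of ERG or GATA2, known targets of GATA4, and endocardial signalling genes) and the members were chosen with earlier results of these data known. Genes of the lists were named by the size of their ratio among those with at least 200 UMIs. Spans came from GENCODE vM21, which held 32522 of the gene IDs. The ratio and interval code was tested on simulated data.

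With 1 library per condition, no value separates the antibody from differences between hearts or preparations. Cell type names rest on RNA markers, and clusters and levels come from the same nuclei. RNA from other cells was not removed, so that low shares of a gene in a cell type can come from outside it. Proteins were not analysed here, and some like genes, cluster values and overlapping genes are not reported here.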

Additional observations from a re-analysis of the deposited data

Results flagged for a closer look

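Gata4 and Gata6 had ratios between the PD-1 inhibitor and control libraries that pointed in opposite directions in different cell types, each with an interval that left out 0. For Gata4 the log2 ratio was 0.44 in mural nuclei and 0.93 in the class named macrophages (25 and 36 UMIs) but -0.77 in cardiomyocytes. It was 0.22 (-0.25 to 0.68) in the larger mural cluster and 0.40 (-0.48 to 1.28) in the larger macrophage cluster, both within counting error, against 15 and 23 UMIs and 1 and 12 UMIs in the smaller ones. The smaller macrophage cluster was led by Cd209a, Klri1 and Clec9a, and none of its leading genes was a fixed macrophage marker. The macrophage class was beyond counting error only with that cluster. For Gata6 it was 0.36 in endothelial nuclei and 0.40 in mesothelial nuclei but -0.45 in cardiomyocytes. The differences between the cell types were not tested. Depth was similar, with medians of 1404 and 1423 UMIs in cardiomyocytes, but was 1293 and 1724 in mesothelial nuclei. The share of cardiomyocyte and endothelial clusters also differed between the libraries, and its part in these values was not tested beyond the ratios with the same mix of clusters.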

How the results depend on the processing

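Under other settings, 831 of 869 alternative values of 71 results stayed inside the 95% interval of the reported value (counts of members within 1.5 times), and 38 moved outside it. No ratio whose interval left out 0 changed sign, but some whose interval held 0 did, as for Tbx20 in endothelial nuclei and Gata5 in mesothelial nuclei. By kind, 5 of 140 endothelial ratios moved, 15 of 209 endocardial over capillary ratios, 17 of 490 ratios in other types and clusters, and 1 of 30 counts of members. The cause of a move was not tested unless stated. No paired analysis was possible because each condition had 1 library.

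With at least 500 genes per nucleus, the endocardial over capillary log2 ratio of Tbx20 was 1.21 (control) and 1.18 (PD-1 inhibitor), and that of Gata5 -1.27 (PD-1 inhibitor). The endocardial ratio of Mecom between the libraries was -0.26. With doublets kept, Tbx20 over capillary nuclei was 1.14 and 1.30, and Mecom in arterial nuclei -0.33. With at most 5% mitochondrial UMIs, Mecom in cardiomyocytes was 0.41 against 0.02.

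At resolution 0.5, the endocardial over capillary ratio of Mecom was -0.39 and 0.084, and that of Gata2 0.61 (PD-1 inhibitor). At resolution 2 it was 1.03 and 0.93 for Tbx20, whose endocardial ratio was -0.41. With each library clustered alone, Tbx20 in endocardial nuclei was -0.97 and 1.35 over capillary nuclei (PD-1 inhibitor). Mecom in capillary nuclei was -0.46, and 0.18 in endocardial over capillary nuclei (PD-1 inhibitor).

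As means over nuclei, Tbx20 was -0.19 in endothelial and -0.31 in endocardial nuclei, and Mecom -0.36 in mural nuclei, against 0.03 from sums. With nuclei thinned to 500 UMIs, endothelial ratios were -0.24 for Gata4, -0.68 for Nfatc1 and -0.46 for Tbx20. Endocardial ratios were -0.51 for Gata4 and -0.57 for Tbx20, and Tbx20 in valve nuclei was -0.33. Mural ratios were -0.54 for Mecom and 0.58 for Tbx20, mesothelial ones 0.66 for Gata4 and 1.09 for Gata5, and Nfatc1 in fibroblasts was -0.78 against 0.00. Endocardial over capillary ratios were 1.22 (control) and 1.42 (PD-1 inhibitor) for Gata2, and 2.60 for Gata5 (PD-1 inhibitor). Thinning leaves fewer UMIs, so that its values have larger counting error.

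With the same mix of endothelial clusters, Gata6 was 0.19 in endothelial nuclei, and 1 member was at least 1.2-fold higher in place of 3. With the same mix of cardiomyocyte clusters, Gata4 was -0.58. The count under the same mix, the cardiomyocyte and fibroblast mixes, the count under the same depths and the values without the 48 shared barcodes were added after the data had been seen.

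No value existed for Mecom in arterial nuclei at resolution 0.5, nor for Tbx20 in valve nuclei with doublets kept or with each library clustered alone. No result moved with members among the variable genes, other totals, centred ratios, equal depths, 20 or 200 UMIs as the minimum, without shared barcodes, or with the same mix of fibroblast clusters. Gene lists, like genes and finer clusters were computed under 1 setting.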
